A study of Mus musculus with 16 samples.

Results

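Tsc22d3, Cebpd, Mt2, Gadd45g, Ppp1r3c, Glul, Ccn2 and Rgcc are 8 genes that respond to glucocorticoids or to cell stress in a number of tissues. They were measured by 13 of the 7729 probe sets in the table, taken as all probe sets whose single gene symbol was a member of the list, and all 13 were bright enough to be tested among 4637 probe sets. The genes had been picked from these same arrays because their signals were higher in mice numbered 1 and 2 than in mice numbered 3 and 4, in each genotype. That difference is therefore given here as a description, with no test.

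The mice were female C57BL/6, aged 7 weeks and described as presymptomatic. SOD1G93A mice carried a mutant human superoxide dismutase 1 of a kind found in familial amyotrophic lateral sclerosis, and NTg mice were non-transgenic. The labels give neither the promoter nor the copy number of the transgene. The groups were SOD1G93A gastrocnemius, NTg gastrocnemius, SOD1G93A triceps and NTg triceps, with 4 arrays each and 16 in all, and the labels state no treatment. Gastrocnemius lies in the calf and triceps in the upper foreleg. Both muscles came from the same 4 mice of a genotype, and the replicate number was read as the number of the mouse. What separates numbers 1 and 2 from 3 and 4 is not given in the labels.

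Glucocorticoids such as corticosterone enter cells and bind the glucocorticoid receptor, which the chaperone HSP90 keeps ready for the hormone. The bound receptor moves to the nucleus and raises or lowers the transcription of its target genes. In skeletal muscle the hormone is known for restraining inflammation, slowing glucose use and releasing amino acids from protein, and its blood level follows the time of day and acute stress. Tsc22d3, which encodes the leucine zipper protein GILZ, is a widely used marker of receptor activity. Several of the other genes also answer to other signals. Metallothionein genes such as Mt2 respond to zinc through the factor MTF1, Gadd45g to growth arrest and other stresses, and Ccn2 to TGF-beta and to the mechanically controlled coactivator YAP.

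The deposited values are log2 signals, one for each probe set and array, with array medians between 7.101 and 7.26. Signals of different probe sets cannot be ranked against each other, since probes differ in binding. All 9 of 9 muscle fibre markers were in the table, and their summed log2 level lay between 15.47 and 17.28 over the arrays. In 3 triceps arrays, SOD1G93A number 2 and NTg numbers 1 and 2, the log2 signal of Ckm, muscle creatine kinase, was 12.76, 12.84 and 13.02, against at least 13.84 in the other 5 triceps arrays. All 3 carry the number 1 or 2. The probe set for mouse Sod1 averaged 11.32 ± 0.30 in SOD1G93A gastrocnemius and 11.15 ± 0.15 in NTg gastrocnemius (SD, n = 4 each), and 10.91 ± 0.44 in SOD1G93A triceps and 10.62 ± 0.69 in NTg triceps. It is annotated to the mouse gene and so does not check the human transgene. Nothing in the labels says how mice were allotted or on which days they were sampled, so p-values measure the spread between these mice only.

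RefSeq promoter windows of assembly GRCm38.p6, from 250 bases before to 50 bases after a start site, matched 6 of the 8 genes with 8 windows, of which Tsc22d3 has 3. Cebpd and Ccn2 had no entry. The windows of 3 genes are printed, because they hold a match to the receptor motif (Tsc22d3) or matches to both forms of the metal motif (Mt2 and Gadd45g). The Tsc22d3 window is at chrX:140600473-140600772 on the minus strand, that of Mt2 at chr8:94172368-94172667 on the plus strand and that of Gadd45g at chr13:51846425-51846724 on the plus strand. Capitals mark matches on either strand to the motifs named after the sequences.
Tsc22d3: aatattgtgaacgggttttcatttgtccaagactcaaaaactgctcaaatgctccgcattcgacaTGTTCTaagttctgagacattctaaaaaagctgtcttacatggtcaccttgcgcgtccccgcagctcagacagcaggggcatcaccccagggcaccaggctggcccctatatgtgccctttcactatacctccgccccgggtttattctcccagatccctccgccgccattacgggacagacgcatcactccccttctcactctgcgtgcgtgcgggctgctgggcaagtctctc
Mt2: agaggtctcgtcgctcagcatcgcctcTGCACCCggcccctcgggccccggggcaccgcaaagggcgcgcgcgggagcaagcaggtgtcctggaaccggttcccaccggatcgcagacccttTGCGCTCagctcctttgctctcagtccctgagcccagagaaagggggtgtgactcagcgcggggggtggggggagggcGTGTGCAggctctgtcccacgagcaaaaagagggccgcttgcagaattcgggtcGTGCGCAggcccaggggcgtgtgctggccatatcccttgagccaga
Gadd45g: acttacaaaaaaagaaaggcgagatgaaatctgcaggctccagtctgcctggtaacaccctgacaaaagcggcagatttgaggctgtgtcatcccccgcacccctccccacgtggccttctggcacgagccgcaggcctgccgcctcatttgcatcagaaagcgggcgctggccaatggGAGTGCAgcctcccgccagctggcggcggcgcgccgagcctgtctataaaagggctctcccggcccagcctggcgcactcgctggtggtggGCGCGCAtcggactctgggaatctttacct

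The motifs were chosen after the values were seen and were searched on both strands, and none of the matches in the member windows overlapped. The full receptor palindrome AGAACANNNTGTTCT was in 0 of the 8 windows and in 0.00913% of all 32851 windows. Its single arm AGAACA was in the printed Tsc22d3 window only, 185 bases before the start, and in 19.0% of all windows. That window belongs to the most upstream Tsc22d3 start site, and the windows of the downstream start sites held no match to any of the motifs. Both forms of the core to which MTF1 binds, TGCGCNC and TGCACNC, were in the Mt2 and the Gadd45g windows, and they are in 15.4% and 12.6% of all windows. Mt2 held 2 matches of each form and Gadd45g 1 match of each. The form TGCGCNC was also in the windows of Glul and Ppp1r3c. The C/EBP palindrome TTGCGCAA (0.183% of all windows) and the TEAD motif GGAATG (14.7%) were in none of the 8. These matches describe letters in a short window and do not show binding.

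Tsc22d3 and Cebpd act on transcription. GILZ restrains the inflammatory factors NF-kappaB and AP-1, and Cebpd encodes C/EBP delta, an early factor of inflammation and fat cell formation. For Tsc22d3, arrays 1 to 4 had log2 signals of 9.28, 9.61, 8.40 and 8.31 in SOD1G93A gastrocnemius, against 9.94, 9.48, 8.92 and 8.67 in NTg gastrocnemius. In triceps they were 9.83, 9.82, 8.53 and 8.41 in SOD1G93A mice, against 10.20, 9.94, 9.34 and 8.87 in NTg mice. In each of the 4 groups numbers 1 and 2 were above numbers 3 and 4. The group means ran from 8.90 ± 0.65 (SD, n = 4) in SOD1G93A gastrocnemius to 9.59 ± 0.60 in NTg triceps.

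Cebpd had log2 signals of 7.94, 6.76, 4.50 and 6.53 in arrays 1 to 4 of SOD1G93A gastrocnemius, against 7.74, 8.11, 6.66 and 6.59 in NTg gastrocnemius. Its triceps signals were 8.43, 8.27, 6.06 and 6.70 in SOD1G93A mice, against 8.69, 8.46, 7.74 and 7.92 in NTg mice. The lowest value, in SOD1G93A gastrocnemius number 3, was well under the mean of 6.75 that a probe set had to exceed to be tested. The NTg triceps arrays spread least (8.20 ± 0.45, n = 4) and the SOD1G93A gastrocnemius arrays most (6.43 ± 1.43).

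Mt2 encodes a metallothionein, a small protein that binds zinc and other metals, and Gadd45g a stress protein that binds cell cycle and MAP kinase regulators. Mt2 signals on the log2 scale were 9.44, 8.83, 7.50 and 6.89 in SOD1G93A gastrocnemius, against 9.13, 8.17, 7.28 and 6.99 in NTg gastrocnemius. In triceps they were 8.40, 8.24, 7.39 and 6.63 in SOD1G93A mice, against 8.99, 7.92, 7.17 and 7.58 in NTg mice. Every array numbered 1 or 2 lay above every array numbered 3 or 4, whatever the genotype and muscle. The group means of Mt2 were close together, between 7.66 ± 0.82 in SOD1G93A triceps and 8.17 ± 1.18 in SOD1G93A gastrocnemius (SD, n = 4 each).

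Gadd45g had log2 signals of 8.24, 8.20, 5.03 and 5.96 in SOD1G93A gastrocnemius, against 8.74, 8.60, 7.61 and 7.37 in NTg gastrocnemius. Its triceps signals were 8.85, 8.82, 5.55 and 6.14 in SOD1G93A mice, against 8.87, 8.90, 8.35 and 7.49 in NTg mice. The 4 lowest signals were those of SOD1G93A mice 3 and 4, in both muscles, and all 4 were under 6.75. The SD of the SOD1G93A groups was 1.62 in gastrocnemius and 1.74 in triceps, and that of the NTg groups 0.69 and 0.66.

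Ppp1r3c and Glul serve metabolism. Ppp1r3c encodes a scaffold, also called PTG, that brings protein phosphatase 1 to glycogen, and Glul encodes glutamine synthetase, which makes glutamine from glutamate and ammonia. Ppp1r3c signals (log2) were 10.66, 10.24, 9.38 and 9.05 in SOD1G93A gastrocnemius, against 11.28, 10.11, 9.33 and 9.69 in NTg gastrocnemius. In triceps they were 10.51, 10.04, 8.96 and 8.97 in SOD1G93A mice, against 10.88, 10.68, 9.45 and 9.60 in NTg mice. As for Mt2, all 8 arrays numbered 1 or 2 lay above all 8 numbered 3 or 4.

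Glul had log2 signals of 9.40, 9.54, 8.60 and 8.72 in SOD1G93A gastrocnemius, against 9.99, 9.20, 9.06 and 8.53 in NTg gastrocnemius. Its triceps signals were 10.27, 10.15, 8.75 and 8.88 in SOD1G93A mice, against 10.66, 10.11, 9.68 and 9.66 in NTg mice. The order of the group means was SOD1G93A gastrocnemius (9.07 ± 0.47), NTg gastrocnemius (9.19 ± 0.60), SOD1G93A triceps (9.51 ± 0.81) and NTg triceps (10.03 ± 0.47; SD, n = 4 each). Neighbours in this order overlapped, and the SOD1G93A gastrocnemius and NTg triceps arrays did not.

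Ccn2 encodes a secreted matricellular protein, formerly CTGF, and Rgcc a regulator of the cell cycle first described as a response gene to complement. Ccn2 signals (log2) were 9.15, 8.58, 7.09 and 6.89 in SOD1G93A gastrocnemius, against 9.40, 9.29, 7.95 and 7.77 in NTg gastrocnemius. In triceps they were 8.41, 7.62, 5.93 and 6.14 in SOD1G93A mice, against 8.48, 8.15, 6.58 and 6.77 in NTg mice. The highest group mean was that of NTg gastrocnemius (8.60 ± 0.86) and the lowest that of SOD1G93A triceps (7.03 ± 1.19; SD, n = 4 each).

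Rgcc had log2 signals of 9.25, 8.54, 8.44 and 8.30 in SOD1G93A gastrocnemius, against 9.09, 9.19, 8.28 and 8.68 in NTg gastrocnemius. Its triceps signals were 9.39, 9.18, 7.77 and 7.89 in SOD1G93A mice, against 9.66, 9.88, 8.36 and 8.38 in NTg mice. In this probe set the step between the numbers was wider in triceps than in gastrocnemius, in both genotypes. For the 7 genes other than Glul, the arrays of every pair of the 4 groups overlapped. How many of all tested probe sets overlapped in this way was not counted, so Glul is not shown to stand out.

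**Figure D1:**
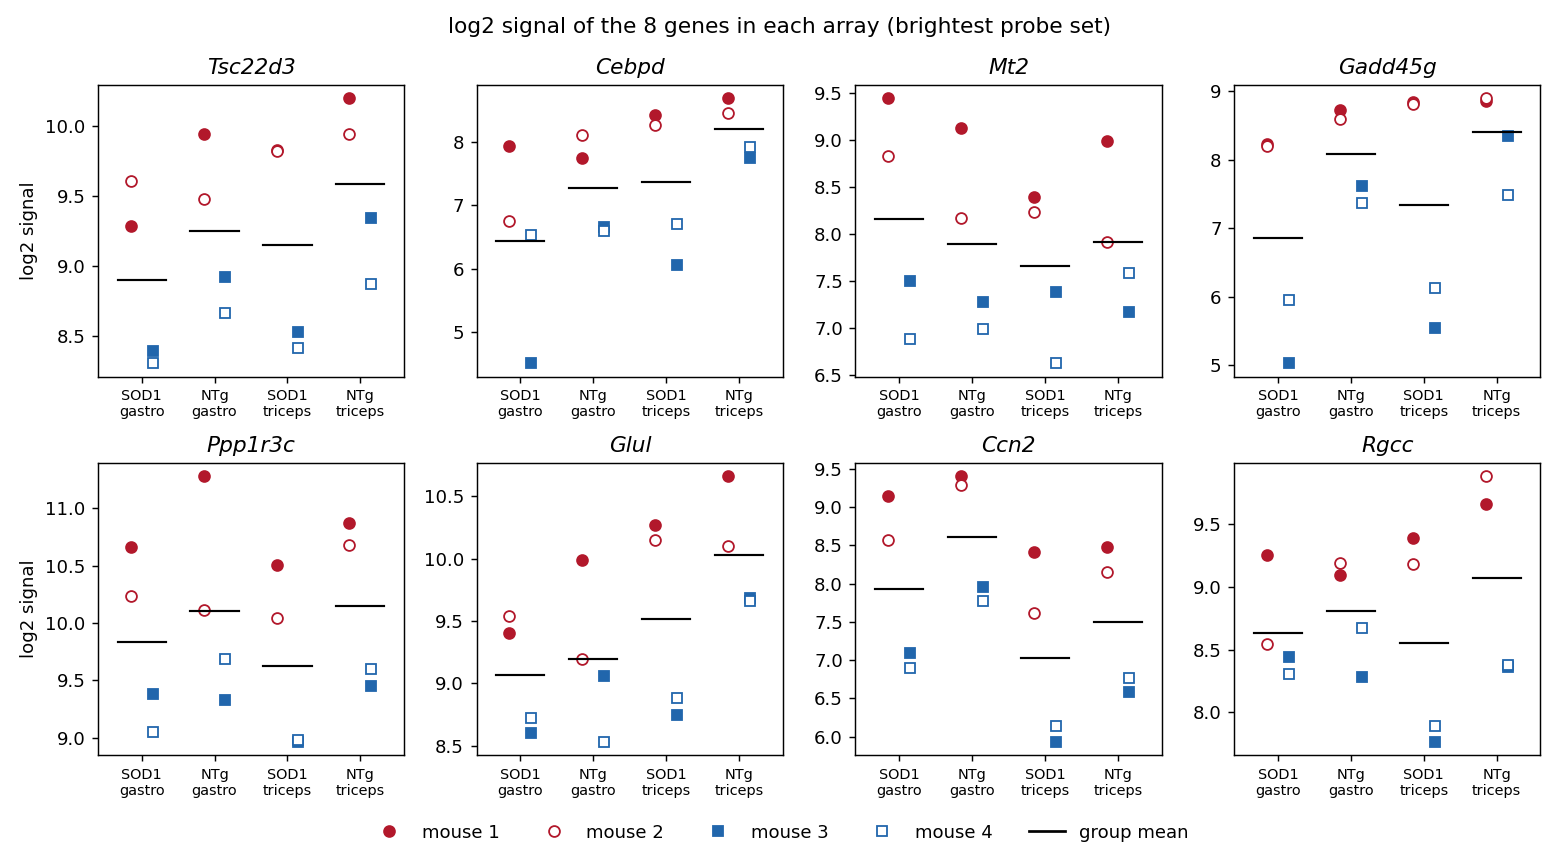
The log2 signal of each of the 8 genes (y axis, brightest probe set) is plotted for every array in the 4 genotype-by-muscle groups (x axis); red circles are mice 1 and 2, blue squares mice 3 and 4, and black lines the means of 4 arrays. In every group of every panel the red circles lie above the blue squares, and the lowest Gadd45g value is 5.03 in SOD1G93A gastrocnemius.

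The 5 dimmer probe sets did not all follow the brightest probe set of their gene. The second Tsc22d3 probe set had a mean difference of 0.76 log2 between numbers 1 and 2 and numbers 3 and 4, and the second probe sets of Ppp1r3c and Rgcc had 0.65 and 0.48. In these 3 probe sets numbers 1 and 2 lay above 3 and 4 without overlap in 3 of the 4 groups, as 8.56% of all tested probe sets did in 3 or more. The second Glul probe set was at 0.20, without overlap in 2 groups. The remaining Tsc22d3 probe set, whose suffix marks probes that may bind other transcripts, had a mean difference of -0.41. It went the other way in triceps only, with -0.54 in SOD1G93A and -1.29 in NTg mice. In gastrocnemius it was at 0.13 in SOD1G93A and 0.08 in NTg mice. Ppp1r3c gave 5.004 in NTg triceps number 2 with its dimmer probe set, against 7.00 to 8.88 in the other NTg triceps arrays, while the brighter probe set gave 10.68 there. Values below refer to the brightest probe set unless another is named.

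Between numbers 1 and 2 and numbers 3 and 4, the mean log2 difference over the 4 groups was 1.97 for Gadd45g, a 3.91-fold higher signal. It was 1.74 for Ccn2 (3.35-fold), 1.46 for Cebpd and for Mt2 (2.76-fold each), 1.25 for Ppp1r3c (2.37-fold), 1.08 for Tsc22d3 (2.12-fold), 1.01 for Rgcc (2.01-fold) and 0.93 for Glul (1.90-fold). These sizes chose the genes, so nothing is read from them. Over all 4637 tested probe sets the median of the same difference was 0.01, 2361 (50.9%) lay above 0 and the middle 95% ran from -0.62 to 0.59. Numbers 1 and 2 did not overlap with 3 and 4 in any of the 4 groups for 8 of the 8 genes and for 91 of all tested probe sets (1.96%). All 8 arrays numbered 1 or 2 lay above the other 8 for 2 genes, Mt2 and Ppp1r3c, and for 19 probe sets (0.41%).

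The genes differed in how evenly the step was spread over the groups. Ppp1r3c was the most even, with log2 differences of 1.23 in SOD1G93A gastrocnemius, 1.19 in NTg gastrocnemius, 1.31 in SOD1G93A triceps and 1.26 in NTg triceps. Gadd45g had 2.73 in SOD1G93A gastrocnemius against 1.18 in NTg gastrocnemius, and 2.99 in SOD1G93A triceps against 0.96 in NTg triceps. Cebpd had 1.83 in SOD1G93A against 1.30 in NTg gastrocnemius, and 1.97 in SOD1G93A against 0.75 in NTg triceps. For Gadd45g the step was wider in SOD1G93A mice in either muscle, a difference between genotypes that was not tested. For Cebpd in gastrocnemius the order rests on the array at 4.50, SOD1G93A number 3, without which the SOD1G93A step is 0.82. Rgcc had 0.52 and 0.66 in SOD1G93A and NTg gastrocnemius and 1.46 and 1.40 in SOD1G93A and NTg triceps. Its dimmer probe set went the other way between the muscles, with 0.73 and 0.42 in SOD1G93A and NTg gastrocnemius and 0.50 and 0.28 in SOD1G93A and NTg triceps. Without the 3 triceps arrays with low Ckm, NTg triceps keeps only numbers 3 and 4 and gives no step. The mean over the other 3 groups cannot be set against the means over 4 groups. For the 8 genes it ranged from 0.92 for Rgcc to 2.30 for Gadd45g. In gastrocnemius, where no array stood apart, the difference ranged from 0.52 to 2.73 over the genes and genotypes.

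**Figure D2:**
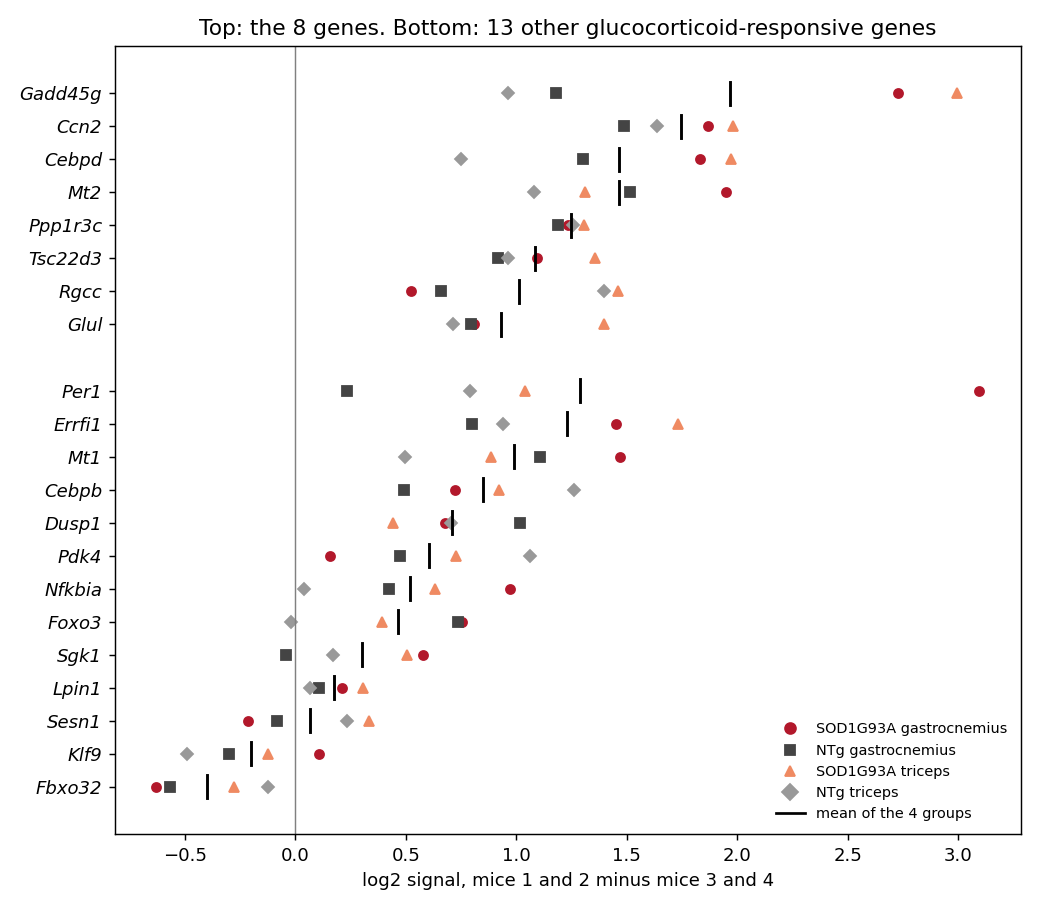
The x axis gives the log2 signal of mice 1 and 2 minus that of mice 3 and 4, with a point for each of the 4 groups and a black bar for their mean; the 8 genes are at the top and 13 other glucocorticoid-responsive genes below. Points of the 8 genes lie between 0.52 and 2.99, while Klf9 and Fbxo32 have means below 0.

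Other array features also moved with the numbers. The summed log2 level of the 9 muscle fibre markers was 15.47 to 16.95 in numbers 1 and 2 and 16.81 to 17.28 in numbers 3 and 4, and 0 of 9 markers had a difference above 0. In gastrocnemius alone Ckm was at 14.29 and 14.31 in SOD1G93A numbers 1 and 2 and at 14.66 and 14.71 in numbers 3 and 4, and at 13.97 and 14.06 against 14.48 and 14.44 in NTg mice. Endothelial markers, 4 of 11 of them in the table, summed to 8.63 to 9.18 in numbers 1 and 2 and to 8.96 to 9.39 in numbers 3 and 4. Fibroblast and matrix markers (6 of 7) summed to 12.07 to 13.74 in numbers 1 and 2 and to 13.05 to 13.82 in numbers 3 and 4. Adipocyte markers (2 of 7) summed to 11.05 to 11.94 in numbers 1 and 2 and to 10.87 to 11.36 in numbers 3 and 4. Immune (5 of 8), Schwann cell (2 of 5), smooth muscle (2 of 4) and tendon markers (3 of 4) differed in their mean sum (1 and 2 minus 3 and 4) by -0.01, 0.16, 0.28 and 0.11, and of 5 erythroid markers 0 were in the table. The part of cell make-up in the values of the 8 genes was not tested, and in whole muscle fewer cells of a type and less RNA per cell cannot be told apart.

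Over the 16 arrays the 8 genes varied together. Of the 28 pairs of genes, the lowest correlation of deviations from the group means was 0.72, the median 0.88 and the highest 0.95. The arrays share the step on which the genes were chosen, and this is a description only. Numbers 1 and 2 against 3 and 4 held 95.3% of the within-group sum of squares of Ccn2, 94.8% of that of Gadd45g and 93.2% of that of Tsc22d3, the least being 75.4% for Cebpd. The median over all tested probe sets was 42.8%. This share adds up the squared step of each of the 4 groups, whatever its direction. It is therefore not a measure of a step that the groups share.

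Of 3026 other genes, the 10 whose deviations were most like the mean profile of the 8 genes over the 16 arrays were Noct (r = 0.94), Ifrd1 (0.91), Slc38a2, Ddrgk1, Mt1 (0.90, 0.90 and 0.89), Ccdc50, Clk1, Wbp1l and Cebpb (0.89 each) and Cnn3 (0.87). Noct encodes nocturnin, a phosphatase whose mRNA follows the time of day, Slc38a2 a transporter that carries glutamine into cells, and Mt1 the second main metallothionein. Clk1 encodes a kinase of splicing factors, and Cebpb the C/EBP beta factor. Noct had the largest difference between the numbers among the 10, at 1.42 log2, and Ddrgk1 the smallest, at 0.32. The profile carries the step on which the 8 genes were chosen, so it picks genes with that step. The ranking is therefore a description only.

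The genotype question was whether SOD1G93A muscle differed from NTg muscle before symptoms. Averaged over both muscles, 7 of the 8 genes had lower mean signals in SOD1G93A mice, by a log2 difference of -1.14 for Gadd45g, -0.84 for Cebpd, -0.57 for Ccn2, -0.40 for Tsc22d3 and Ppp1r3c, -0.34 for Rgcc and -0.32 for Glul. Mt2 was at 0.01. Among 3034 tested genes 1552 lay above 0. The 8 genes varied together over the arrays, so they are not 8 separate observations. None passed the test: limma with the mouse as a random block called 0 of 4637 probe sets (0.0%), 85 had an unadjusted p under 0.05, and the adjusted p was 0.997 for each of the 8 genes.

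Gadd45g came closest, with a mean over mice of 7.098 ± 1.68 in SOD1G93A and 8.24 ± 0.66 in NTg mice (SD, n = 4 each). Its SE was 0.54 and its 95% interval ran from -2.28 to -0.01 on the log2 scale (limma, unadjusted p = 0.0478, adjusted p = 0.997). Cebpd had means over mice of 6.90 ± 1.26 in SOD1G93A and 7.74 ± 0.59 in NTg mice, with an SE of 0.44 and an interval from -1.77 to 0.09. For Tsc22d3 the interval was -0.98 to 0.19 and for Mt2 -0.84 to 0.86, so a 1.5-fold change either way lies inside that of Mt2. The dimmer probe sets lay between -0.20 (Rgcc) and 0.14 (Ppp1r3c).

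In the single muscles the log2 difference of SOD1G93A minus NTg was -1.22 in gastrocnemius and -1.06 in triceps for Gadd45g and -0.84 in each muscle for Cebpd. Without single arrays these values ran from -1.68 to -0.62 for Gadd45g and from -1.35 to -0.20 for Cebpd in gastrocnemius, and from -1.57 to -0.47 for Gadd45g and from -1.19 to -0.40 for Cebpd in triceps. In each case the larger size came without SOD1G93A number 1 and the smaller without SOD1G93A number 3. Ccn2 stood at -0.67 in gastrocnemius and at -0.47 in triceps. The triceps value was 0.15 without the 3 arrays with low Ckm, a setting that keeps SOD1G93A number 1 but only numbers 3 and 4 of NTg and so mixes the step between the numbers into the genotype difference. Mt2 was at 0.27 in gastrocnemius and -0.25 in triceps, Glul at -0.13 and -0.51, and Rgcc at -0.17 and -0.51 in the same order of muscles. limma called 0 of 4637 probe sets in gastrocnemius and 0 in triceps (0.0% each), with 103 and 118 at an unadjusted p under 0.05. The genotype difference in gastrocnemius minus that in triceps lay between -0.20 (Ccn2) and 0.52 (Mt2) for the 8 genes, with 0 probe sets called by limma (0.0%), 86 at an unadjusted p under 0.05, and an adjusted p of 0.999 for each gene. That fit had no term for the mouse, although both muscles came from the same mice. With the mouse as a fixed block limma also called 0 of 4637 probe sets (0.0%).

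The step between the numbers lies in the spread of the tests without a fixed block. The genotypes were therefore also set side by side within numbers 1 and 2 and within numbers 3 and 4 of each muscle, 2 arrays against 2. Both muscles come from the same mice, so the 4 comparisons are not independent of each other. Gadd45g was lower in SOD1G93A than in NTg arrays without overlap in 4 of the 4 comparisons, as were 12 of all tested probe sets (0.259%). In triceps numbers 1 and 2 the gap was narrow, with 8.85 and 8.82 in SOD1G93A against 8.87 and 8.90 in NTg arrays for Gadd45g. Its log2 differences were -0.45 in gastrocnemius and -0.05 in triceps for numbers 1 and 2, and -1.998 and -2.08 for numbers 3 and 4. Tsc22d3, Cebpd and Ccn2 were lower without overlap in 3 of 4 comparisons, against 84 probe sets (1.81%) with 3 or more. Ppp1r3c and Rgcc were so in 2, Glul in 1 and Mt2 in 0. None of the 8 was higher in SOD1G93A without overlap in 4 comparisons, as 0.216% of tested probe sets were.

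With the pair of numbers as a fixed block, limma again called 0 of 4637 probe sets for the averaged genotype difference (0.0%), with 194 at an unadjusted p under 0.05. This block takes out the step on which the 8 genes were chosen. The part of that choice in their p-values was not tested. With the block Gadd45g and Ccn2 each had an adjusted p of 0.273 (limma, unadjusted p = 0.000396 and 0.000470, against 0.0478 and 0.208 without it). Cebpd had an adjusted p of 0.871 with the block. The genotype difference of the 8 genes was therefore not detectable by this test in 4 mice against 4.

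**Figure D3:**
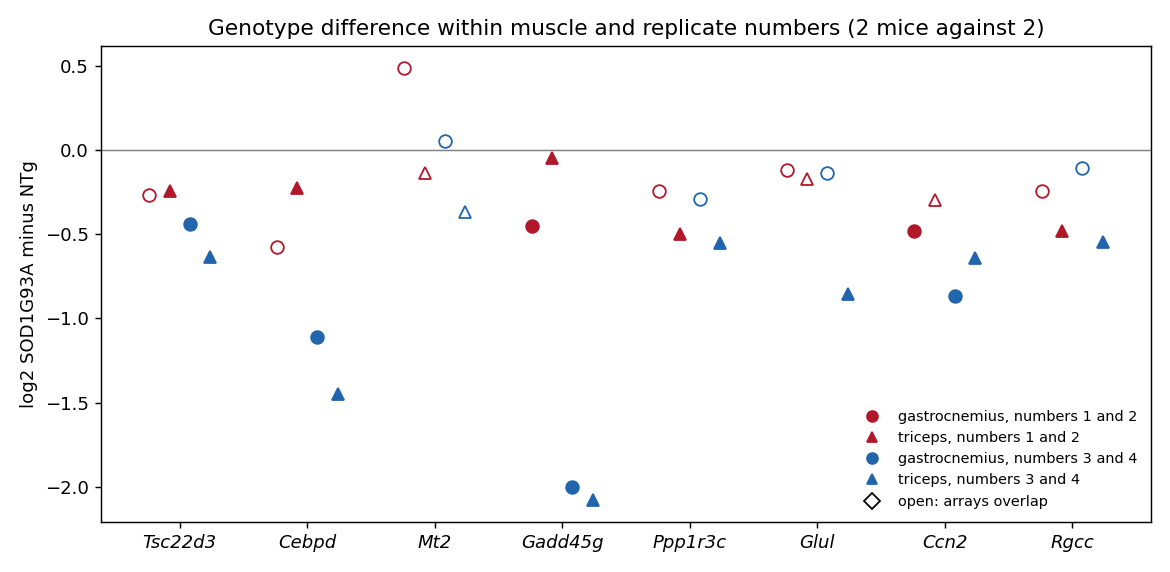
The log2 difference of SOD1G93A minus NTg (y axis) is plotted for each gene within numbers 1 and 2 (red) and 3 and 4 (blue), in gastrocnemius (circles) and triceps (triangles), each point being the mean of 2 arrays minus that of 2; filled points are comparisons without overlap. All 4 Gadd45g points are filled and those of numbers 3 and 4 lie at -1.998 and -2.08, while all 4 Mt2 points are open.

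Between the muscles Ccn2 was higher in gastrocnemius, and Glul and Cebpd were lower. Compared within each of the 8 mice, Ccn2 had a log2 signal 1.01 higher in gastrocnemius (SE 0.11, 2.01-fold), with mean signals of 8.27 ± 0.99 in gastrocnemius and 7.26 ± 1.03 in triceps (SD, n = 8 each). The difference was positive in 8 of 8 mice, from 0.74 to 1.37, and passed the test (limma with the mouse as a block, adjusted p = 7.12e-05). In that fit 168 of 4637 probe sets were called higher in gastrocnemius (3.62%) and 150 lower (3.23%). Gastrocnemius exceeded triceps in 8 of 8 mice for 275 probe sets (5.93%), and the reverse held for 204 (4.4%).

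Glul averaged 9.13 ± 0.51 in gastrocnemius and 9.77 ± 0.67 in triceps (SD, n = 8 each), a log2 difference of -0.64 (SE 0.10, 1.56-fold lower, limma adjusted p = 0.00241). It was lower in gastrocnemius in 8 of 8 mice, by values from -1.13 to -0.15. The dimmer Glul probe set pointed the same way at -0.27 and did not pass (limma adjusted p = 0.284). Cebpd averaged 6.86 ± 1.15 in gastrocnemius and 7.78 ± 0.93 in triceps, a difference of -0.93 (SE 0.18, 1.90-fold lower, limma adjusted p = 0.00953), and was lower in 8 of 8 mice.

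Tsc22d3 stood at the threshold, at -0.29 (SE 0.08, limma adjusted p = 0.049995) and lower in gastrocnemius in 8 of 8 mice. Its call was lost without any single mouse (adjusted p from 0.0538 to 0.138), and its dimmer probe sets were at 0.19 and 0.28. Gadd45g was at -0.40, also lower in 8 of 8 mice, and did not pass (limma adjusted p = 0.0534). Mt2 at 0.24, Ppp1r3c at 0.08 and Rgcc at -0.09 did not pass either (adjusted p from 0.261 to 0.724). The dimmer Ppp1r3c probe set was at 0.91 (limma adjusted p = 0.0617), with 3.37 in NTg mouse 2 and -0.0025 to 0.90 in the other 7 mice.

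Without the mouse in the model, limma called 171 probe sets (3.69%), 98 of them higher in gastrocnemius (2.11%) and 73 lower (1.57%), and 0 of the 8 genes, with Ccn2, Glul and Cebpd at an unadjusted p under 0.05. Their adjusted p values were then 0.190 for Ccn2, 0.161 for Glul and 0.217 for Cebpd, at the same differences. In the 5 mice whose triceps arrays did not stand apart, the paired differences were 1.04 for Ccn2, -0.63 for Glul and -0.97 for Cebpd (limma adjusted p = 0.00175, 0.00890 and 0.0220). Between the muscles the summed log2 level of 2 Schwann cell markers was 9.13 to 10.55 in gastrocnemius and 8.16 to 8.82 in triceps, that of 6 fibroblast and matrix markers 13.05 to 13.82 in gastrocnemius and 12.07 to 13.47 in triceps. For 3 tendon markers it was 9.98 to 10.66 in gastrocnemius and 9.42 to 10.15 in triceps, and for 9 fibre markers 16.75 to 17.28 in gastrocnemius and 15.47 to 17.06 in triceps. Fibre type genes were among those called with the smallest p, such as Myl3, the slow myosin light chain, at 5.25 (limma without the mouse, adjusted p = 6.90e-08). Their part in the differences of Ccn2, Glul and Cebpd was not tested.

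**Figure D4:**
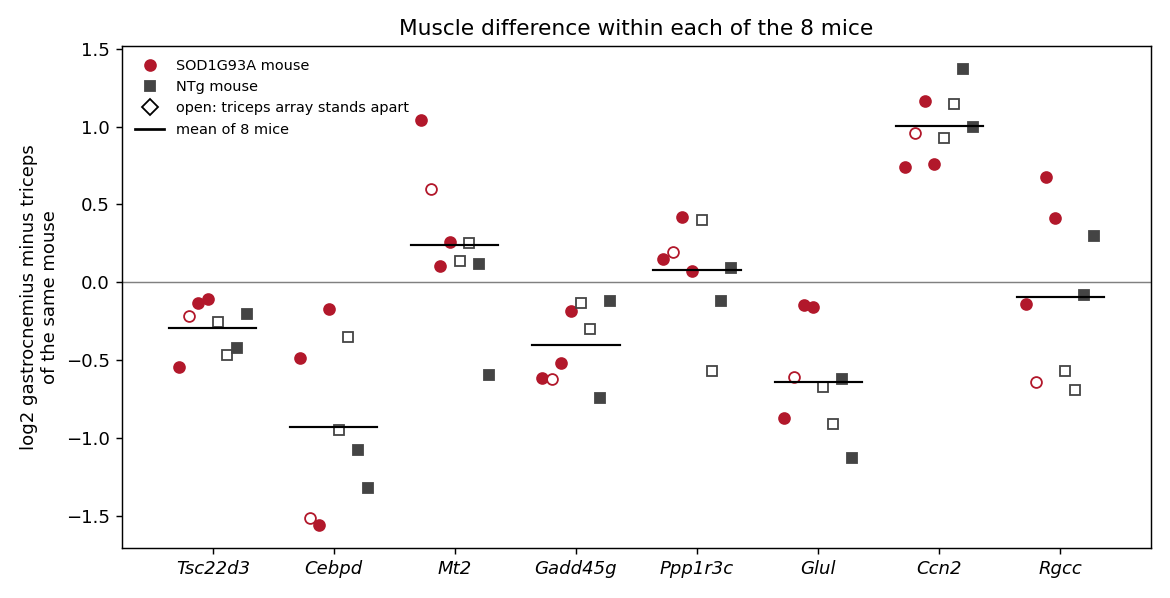
The log2 signal of gastrocnemius minus triceps of the same mouse (y axis) is plotted for each gene, with circles for SOD1G93A mice, squares for NTg mice, open symbols for the 3 mice with a triceps array that stood apart and black lines for the mean of 8 mice. All 8 Ccn2 points lie between 0.74 and 1.37, and all 8 points of Glul, Cebpd, Tsc22d3 and Gadd45g lie below 0.

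Other genes of the same pathways were described by lists written with earlier results of these arrays known. Of 30 other glucocorticoid-responsive genes, 18 were in the table and 13 were tested, and 11 of the 13 had higher signals in numbers 1 and 2, with a median difference of 0.52 log2. Among 3034 tested genes the median was 0.00 and 1532 lay above 0. The largest means were those of Per1, a clock gene with receptor binding sites, at 1.29, which had 3.10 in SOD1G93A gastrocnemius and 0.23 to 1.04 in the other 3 groups, Errfi1, an inhibitor of EGF receptor signalling, at 1.23, and Mt1 at 0.99. Cebpb was at 0.85 and Dusp1, a MAP kinase phosphatase, at 0.71. These with Errfi1, 3 of the 13, were without overlap in 4 of 4 groups, as were 54 of the 3034 tested genes. Not all classical targets went this way. Klf9, a transcription factor, was at -0.20 and Fbxo32, the ubiquitin ligase atrogin of wasting muscle, at -0.40, while Pdk4, a brake on glucose oxidation, was at 0.61.

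The median genotype difference of these 13 genes, averaged over both muscles, was -0.23 log2, 5 lay above 0, and 0 were called by limma. The median over all tested genes was 0.00. Between the muscles 1 of the 13, Mt1, was called higher in gastrocnemius with the mouse as a block (0.54, limma adjusted p = 0.0239), and 0 were called lower. Among 3034 tested genes 109 were called higher and 89 lower in that fit.

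Of 13 genes of the receptor and its handling 6 were in the table and 4 were tested, with a median of 0.16. Nr3c1, the receptor gene, was at 0.21, Hsp90aa1, the inducible HSP90, at 0.61, and Stip1, a cochaperone, at -0.19. None of the 4 was called between genotypes or muscles.

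Lists were also built around the single members. Immediate early genes (17 listed, 11 in the table, 8 tested) had a median difference between the numbers of 0.99 log2, 7 of 8 above 0, with Fos at 1.79, Jun at 1.201 and Klf4 at 1.15. The C/EBP list (4, 2 and 2) had a median of 0.49. Metallothionein and zinc genes (6, 1 and 1) were represented by Mt1. Glutamine and glutamate genes (8, 5 and 4) had a median of -0.13, with Slc38a2 at 0.78, Got2 at -0.42 and Got1 at -0.36, both aspartate aminotransferases.

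Glycogen genes (14, 10 and 9) had a median of -0.13, with 2 of 9 above 0. Pygm, muscle glycogen phosphorylase, was at -0.53, Ugp2, which makes UDP-glucose, at -0.30 and Ppp1cc, a catalytic subunit of protein phosphatase 1, at 0.24, against 1.25 for Ppp1r3c. GADD45 and p53 genes (9, 5 and 3) had a median of 0.08, and Gadd45b, the relative of Gadd45g, was at -0.51. YAP and TGF-beta genes (14, 9 and 4) had a median of -0.01, from -0.13 for Yap1 to 0.19 for Tgfbr1, beside 1.74 for Ccn2. These 4 tested genes encode receptors and coactivators, and so do not show how targets other than Ccn2 moved. Circadian clock genes (18, 8 and 7) had a median of -0.14, with Nr1d1, a repressor of the clock, at -0.96, Bhlhe40 at -0.55 and Per1 at 1.29. Of the cell cycle genes around RGCC (5, 1 and 1), Cdkn1b was at -0.03.

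In these lists limma called no gene between genotypes in either muscle or over both. With the mouse as a block, it called 3 between muscles besides Mt1, namely Phka1 (0.33, adjusted p = 0.0250) and Ppp1ca (0.37, adjusted p = 0.0476) higher in gastrocnemius and Egr1 (-0.61, adjusted p = 0.0412) lower. In the same fit 109 of 3034 tested genes were called higher in gastrocnemius and 89 lower. Phka1 encodes a subunit of phosphorylase kinase, Ppp1ca a catalytic subunit of protein phosphatase 1, the enzyme that PTG brings to glycogen, and Egr1 an immediate early transcription factor.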

How the data were processed

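RNA of 16 muscle samples was hybridised to Affymetrix arrays. The deposited table gives a log2 value per probe set and array; per the submitters' processing notes MAS5 was used, with scaling, and the rule behind the 7729 probe sets, not given in the sources used here. The base of the logarithm was read from the range of the values, -0.77 to 14.81. Values were used as deposited; precision is limited by the number of arrays. Platform symbols of the 13 probe sets matched RefSeq.

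limma 3.58.1 (R 4.3.3; lmFit, eBayes with an intensity trend) fitted 4 group means to the 4637 probe sets with a mean above the 40th percentile (log2 6.75), with Benjamini-Hochberg adjustment over all of them and calls at an adjusted p under 0.05. For the averaged genotype difference the mouse was a random block (consensus correlation 0.185). The muscle comparison with the mouse as a fixed block was added as a result after the data were seen: both muscles came from the same mouse, and in deviations from the group means all 8 gastrocnemius arrays correlated best with the triceps array of their own number (r from 0.14 to 0.39). The 5 fits without a fixed block were tested on simulated data, with noise independent between arrays and no step between the numbers. The fits with a fixed block, of the mouse, the pair of numbers or the replicate number, were not tested in this way. The brightest probe set stands for a gene.

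The members, the gene lists and the markers were chosen with earlier results of these data known. Named genes are the members, the 10 genes most like their mean profile, up to 3 genes of each list with the largest difference between the numbers plus any called, and of the called non-members the 5 with the smallest p. Sod1, Ckm, Klf9, Fbxo32, Pdk4, Dusp1, Cebpb, Nr3c1 and Gadd45b, where they fall outside this rule, were chosen after their values were seen.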

Additional observations from a re-analysis of the deposited data

Results flagged for a closer look

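In 1 of the 52 sets of 4 arrays examined (13 probe sets in 4 groups), an array lay far from the other 3. It was the dimmer Glul probe set in SOD1G93A gastrocnemius, where replicate 4 had a log2 signal of 7.32, against 7.76, 7.77 and 7.84 in the other 3 arrays. Chance alone marks about 1 in 20 such sets. The brighter Glul probe set read 8.72 in that array, above the 8.60 of replicate 3.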

How the results depend on the processing

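The genotype comparisons kept 0 called probe sets under every alternative run. The number called between muscles without the mouse, 171, was 103 when the 3 triceps arrays with low Ckm were left out, 436 with the pair of numbers as a block, 318 with the replicate block by mouse, and 99 to 272 without single arrays. With the mouse block the 318 became 177 without the 3 mice and 129 to 356 without single mice. Ccn2, Glul and Cebpd kept their paired calls in all of these, including quantile normalization and median centring, and Tsc22d3 lost its call (adjusted p = 0.0522, 0.0648 and 0.173 with quantile normalization, median centring and without the 3 mice). The same numbers in both genotypes correlated at 0.00 to 0.37, with the own number best in 1 of 8 cases. This does not show whether mice of the same number shared more than the number. With the replicate number as a block for the averaged genotype difference limma called 0 probe sets. The adjusted p was then 0.122 for Ccn2 and 0.421 for Gadd45g. That block too takes out the step on which the genes were chosen. Leaving out those 3 arrays leaves NTg triceps with numbers 3 and 4 only, so the groups are then unbalanced for the step between numbers; signs turned under it for Ccn2 (0.15) and Mt2 (0.10) between genotypes in triceps, for the dimmest Tsc22d3 probe set (-0.16) and the dimmer Ppp1r3c probe set (-0.015) between genotypes over both muscles, for Tsc22d3 (-0.17), Ppp1r3c (-0.23) and Rgcc (-0.15) in the difference of genotype effects, and for Tsc22d3 (0.061), its dimmest probe set (-0.16), Rgcc (0.36) and Gadd45g (0.085) between unpaired muscles. Without the 3 mice the paired muscle difference turned for the dimmest Tsc22d3 probe set (-0.18) and Rgcc (0.21). For Cebpd the difference of genotype effects turned with quantile normalization (0.14) and median centring (0.025). None of these passed the test, and the cause was not tested. Without single arrays signs turned within these ranges. For the difference of genotype effects they were -0.61 to 0.26 for Ccn2, -0.51 to 0.64 for Cebpd, -0.76 to 0.45 for Gadd45g, -0.16 to 0.33 for Tsc22d3 and -0.017 to 0.65 for Ppp1r3c. For gastrocnemius they were -0.35 to 0.14 for Glul, -0.15 to 0.70 for Mt2 and -0.54 to 0.12 for Ppp1r3c, and for triceps -0.50 to 0.11 for Mt2. Over both muscles they were -0.18 to 0.19 for Mt2, -0.21 to 0.40 for the dimmer Ppp1r3c, -0.18 to 0.12 for the middle Tsc22d3 probe set and -0.088 to 0.31 for its dimmest probe set. Between unpaired muscles they were -0.12 to 0.23 for Ppp1r3c and -0.22 to 0.048 for Rgcc, and for Rgcc paired -0.19 to 0.029. The median difference between numbers over the 8 genes, 1.35, stayed between 1.22 and 1.47 under its alternatives. Of these, the setting without the 3 triceps arrays with low Ckm takes its mean over the groups other than NTg triceps. Signals under 6.75, as for Gadd45g in SOD1G93A mice 3 and 4, limit how exactly such differences are known.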
